A study of Homo sapiens with 8 samples.

Results

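Transcripts of 8 Jumonji histone demethylases of the KDM4, KDM5 and KDM6 subfamilies were examined in A673 cells treated with JIB-04, with the flavin-dependent demethylase KDM1A beside them as a contrast. The 9 genes were taken by symbol from a deposited RNA-seq table of 65962 usable genes. Each symbol matched a single entry, and all 9 were among the 17460 genes that entered the test, which required an average of 1 FPKM or more (fragments counted on a gene, divided by its length and by the library's mapped reads). A673 is an established Ewing Sarcoma cell line, and 4 samples were treated with 2 μM JIB-04 for 36 hours while 4 samples received vehicle (DMSO) for the same time. JIB-04 is a small-molecule inhibitor with activity against several Jumonji demethylases, and the comparison asks how the transcripts of its own target family stood in treated cells. It is a single line at a single dose and time, and only transcripts were measured, not protein or enzyme activity. Separate cultures are named neither in the labels nor in the methods, and a p-value here reflects the spread among these samples alone, which may be technical.

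Jumonji demethylases remove methyl groups from histone lysines by oxidation, using ferrous iron, oxygen and 2-oxoglutarate, and can act on trimethylated lysine. KDM1A instead oxidizes the methylated lysine with a flavin cofactor, which limits it to mono- and dimethylated lysine. KDM4 enzymes act on H3K9 and H3K36, KDM5 enzymes on H3K4, and KDM6 enzymes on H3K27, so the subfamilies between them remove marks tied both to active and to silent chromatin.

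The libraries differed in ways that bear on small changes. FPKM of all genes summed to between 1175410 and 1237190 in the JIB-04 libraries and to between 1346290 and 1370440 in the vehicle libraries. Messenger RNAs of the mitochondrial genome took 3.60% to 4.33% of the FPKM with JIB-04 and 9.60% to 10.2% with vehicle. The total of reads is unknown, but the steps between low FPKM values gave relative depths of 0.766 to 0.926 in the JIB-04 libraries and 0.826 to 1 in the vehicle libraries, with vehicle replicate 1 set to 1. All 7 Ewing Sarcoma markers on the list were present, with means between 71.3 FPKM (FLI1) and 599 FPKM (CD99) with JIB-04 and between 60.4 FPKM (FLI1) and 1160 FPKM (CD99) with vehicle. Of 8 markers of blood, epithelial, endothelial and liver cells, 0 reached the mean of 1 FPKM needed for testing. The highest of them, the endothelial gene PECAM1, averaged 1.29 FPKM with JIB-04 and 0.568 FPKM with vehicle, and CD3E, CDH1 and ALB were listed at 0 in every vehicle library. In bulk RNA, fewer cells of a type and less RNA per cell cannot be told apart.

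All 8 Jumonji members were higher with JIB-04 than with vehicle, and KDM1A was lower. Genes were compared by limma on log2(FPKM + 0.5), with a Benjamini-Hochberg adjusted p under 0.05 over all 17460 genes as the threshold. By that test 34.2% of all genes were higher and 38.0% were lower, so a change in itself was common in these cells. The median log2 fold change (JIB-04 minus vehicle) was 1.67 over the 8 Jumonji members and -0.066 over all genes tested. Of the 9 members, 6 were at least 2-fold higher (KDM4C, KDM5A, KDM5B, KDM5C, KDM6A and KDM6B), beside 13.1% of all genes. The groups did not overlap in any of the 9 members, and an exact two-sided permutation test over the 8 libraries gave p = 0.0286 for each, the smallest that 4 against 4 allows. Among all genes tested, 31.9% were higher and 35.4% were lower with no overlap between the groups.

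**Figure D1:**
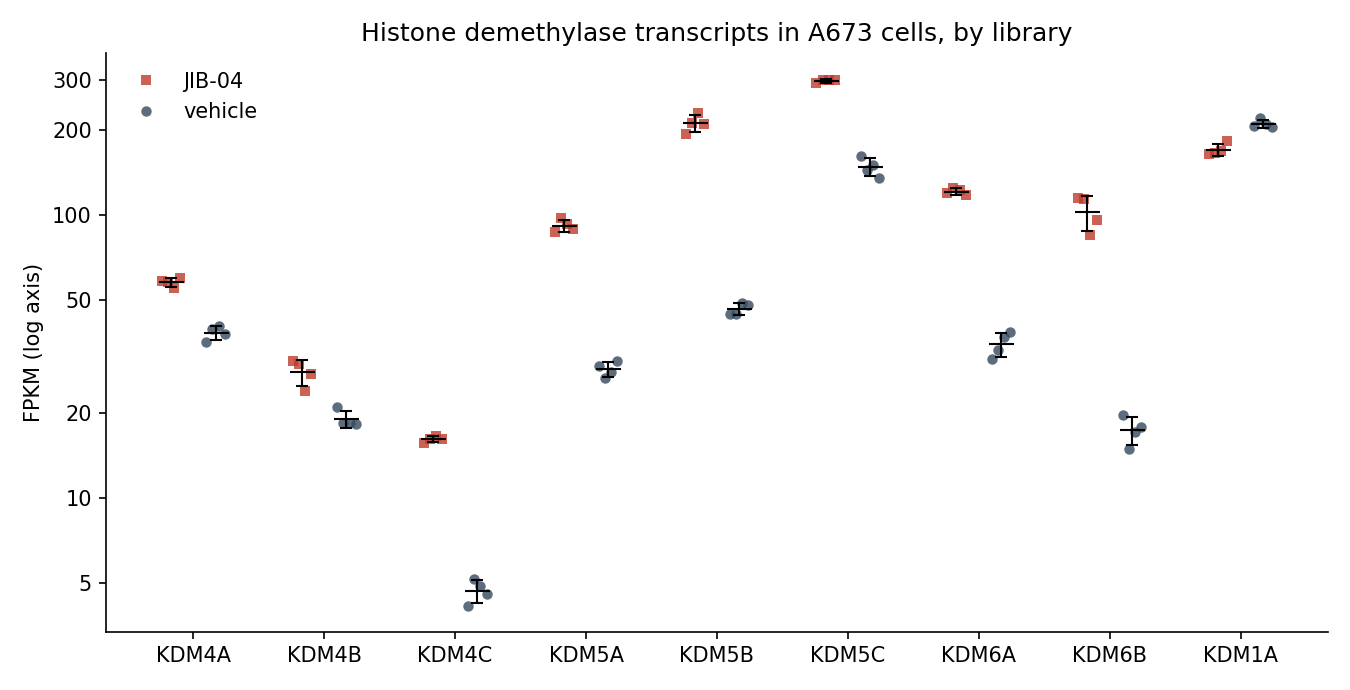
FPKM (log axis) of the 9 demethylases in each library, with JIB-04 as squares to the left of vehicle as circles, and the mean ± SD of 4 libraries as bars. The squares lie above the circles in all 8 Jumonji members, most widely in KDM6B (103 against 17.4 FPKM on average), and below them in KDM1A (171 against 210.2 FPKM).

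The KDM4 enzymes KDM4A, KDM4B and KDM4C remove methyl groups from H3K9, a mark of silent chromatin, and from H3K36, a mark of transcribed gene bodies. KDM4A (ENSG00000066135, GRCh38 chr1:43650158-43705515, plus strand) had 58.4, 57.9, 55.2 and 59.8 FPKM in the JIB-04 libraries, against 35.5, 39.5, 40.5 and 38.0 FPKM in the vehicle libraries. Its lowest treated library stood well above its highest vehicle library. The log2 fold change was 0.59 (SE 0.05, limma adjusted p = 8.31e-06), and the ratio of the group means was 1.51. The exons of KDM4A overlap those of an antisense gene, KDM4A-AS1, which averaged 2.32 FPKM with JIB-04 and 7.62 FPKM with vehicle (log2 fold change -1.54, SE 0.20, limma adjusted p = 7.34e-05). KDM4A-AS1 thus moved opposite to KDM4A in these libraries, which were made with a directional kit. The sources used here do not state whether the counting used the strand.

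KDM4B (ENSG00000127663, chr19:4969113-5153595, plus strand) had 30.6, 29.6, 24.0 and 27.3 FPKM with JIB-04, against 20.9, 18.5, 18.3 and 18.3 FPKM with vehicle. JIB-04 replicate 3 was the lowest treated library and vehicle replicate 1 the highest control, and these came within a few FPKM of each other without overlapping. The log2 fold change was 0.54 (SE 0.09, limma adjusted p = 0.000369). KDM4B has a GC-rich transcript (61.2% GC in its longest annotated form), and with the trend on GC content removed from each library its log2 fold change was 0.98. KDM4C (ENSG00000107077, chr9:6720863-7175648, plus strand) was the least abundant member in both groups. It had 15.7, 16.1, 16.6 and 16.1 FPKM with JIB-04, against 4.16, 5.18, 4.89 and 4.57 FPKM with vehicle. The treated libraries lay within 1 FPKM of each other and far from the controls. The log2 fold change was 1.68 (SE 0.08, limma adjusted p = 1.01e-07), and the means differed 3.43-fold.

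The promoters of KDM4B and KDM4C share an E-box, CACGTG, which is a palindrome and holds the shorter motif ACGTG, the core of the hypoxia response element, on both strands. These stretches are shown because they carry the motif matches described further on. The sequences are from RefSeq on GRCh38.p14, and capitals mark ACGTG on either strand. The KDM4B promoter covers chr19:4968863-4969112, plus strand, the 250 bases before the start of transcription, with the E-box near its far end:
KDM4B promoter: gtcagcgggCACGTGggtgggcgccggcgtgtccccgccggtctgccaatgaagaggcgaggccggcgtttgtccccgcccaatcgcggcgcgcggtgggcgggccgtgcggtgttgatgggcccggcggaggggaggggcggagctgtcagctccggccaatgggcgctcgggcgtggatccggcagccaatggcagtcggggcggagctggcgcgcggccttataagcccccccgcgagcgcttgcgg
The E-boxes of KDM4C end 58 and 26 bases before its RefSeq start, in chr9:6757898-6757927 and chr9:6757930-6757959, plus strand. These positions lie in an exon of a longer KDM4C transcript in GENCODE:
KDM4C first site: tgtttgtaagccCACGTGactcaccaagtg
KDM4C second site: ggccccagcggtCACGTGacggcgcgcgcg

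The KDM5 enzymes remove methyl groups from H3K4, whose trimethylation marks active promoters. KDM5A (ENSG00000073614, chr12:280129-389454, minus strand), which was first found as a partner of the retinoblastoma protein, had 86.9, 97.4, 93.3 and 89.0 FPKM with JIB-04, against 29.3, 26.6, 27.9 and 30.6 FPKM with vehicle. The groups lay far apart beside their spread of a few FPKM. The log2 fold change was 1.66 (SE 0.06, limma adjusted p = 2.14e-08). Exons of CCDC77 on the opposite strand overlap those of KDM5A, and CCDC77 averaged 66.1 FPKM with JIB-04 and 47.5 FPKM with vehicle.

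KDM5B (ENSG00000117139, chr1:202724495-202809470, minus strand) had 194, 211, 229 and 209 FPKM with JIB-04, against 44.6, 44.7, 48.8 and 48.1 FPKM with vehicle. This enzyme, also known as PLU-1, showed the greatest change of the KDM5 members, with a log2 fold change of 2.17 (SE 0.06, limma adjusted p = 5.06e-09) and means that differed 4.53-fold. A processed pseudogene within its introns, AC098934.3, averaged 53.1 FPKM with JIB-04 and 94.2 FPKM with vehicle, and so stood on the opposite side. KDM5C (ENSG00000126012, chrX:53191321-53225422, minus strand), an X-linked gene mutated in inherited intellectual disability, was the most abundant Jumonji member in both groups. It had 292, 299, 301 and 299.7 FPKM with JIB-04, against 161, 145, 151 and 136 FPKM with vehicle. The treated libraries were almost level (coefficient of variation 1.31%), while the controls were more scattered (7.28%). This contrast was reversed with the GC trend removed. The SD of the log2 values was then 0.072 with JIB-04 and 0.050 with vehicle, in place of 0.019 and 0.105. The log2 fold change was 1.01 (SE 0.05, limma adjusted p = 1.88e-07), just past 2-fold, and was 0.9997 without vehicle replicate 2 and 0.97 without vehicle replicate 4. KDM5C and KDM6A each have a close copy on the Y chromosome, and the sources used here do not state how reads shared by such copies were assigned.

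The KDM6 enzymes remove methyl groups from H3K27, the mark laid down by Polycomb repressive complex 2 (PRC2). KDM6A (ENSG00000147050, chrX:44873177-45112602, plus strand), also known as UTX, is a subunit of the KMT2C and KMT2D methyltransferase complexes. It had 119.98, 125, 122 and 118 FPKM with JIB-04, against 31.1, 33.3, 37.1 and 38.5 FPKM with vehicle. All treated libraries were more than 3 times as high as the highest control, with a log2 fold change of 1.78 (SE 0.07, limma adjusted p = 3.55e-08). KDM6B (ENSG00000132510, chr17:7839904-7854796, plus strand), also known as JMJD3 and inducible by inflammatory stimuli in other cells, had 115, 114, 85.1 and 96.0 FPKM with JIB-04, against 19.7, 14.9, 17.1 and 17.9 FPKM with vehicle. It was the most variable member among the treated libraries (coefficient of variation 14.2%), yet the lowest of these was far above every control. With the GC trend removed, the SD of its log2 values there was 0.073 in place of 0.209, and that of KDM5B was higher (0.123). The KDM6B log2 fold change of 2.52 (SE 0.12, limma adjusted p = 8.86e-08), or 5.90-fold between the means, was the highest of the 9 members.

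The KDM6A promoter also holds an E-box and is shown up to the first annotated exon, chrX:44872938-44873176, plus strand, with the capitals as above. The E-box ends 90 bases before the RefSeq start, and a further ACGTG precedes it:
KDM6A promoter: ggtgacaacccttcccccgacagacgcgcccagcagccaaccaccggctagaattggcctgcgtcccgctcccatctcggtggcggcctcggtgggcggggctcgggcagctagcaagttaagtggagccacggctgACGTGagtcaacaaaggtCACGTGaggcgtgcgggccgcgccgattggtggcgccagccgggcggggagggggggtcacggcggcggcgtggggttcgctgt

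KDM1A (ENSG00000004487, chr1:23019443-23083689, plus strand), also known as LSD1, acts on H3K4 within repressor complexes and does not use the Jumonji chemistry. It had 165, 166, 168 and 183 FPKM with JIB-04, against 206, 219.7, 210.2 and 204 FPKM with vehicle. JIB-04 replicate 4 was the highest treated library, and still lay below every control. The log2 fold change was -0.30 (SE 0.05, 95% interval -0.40 to -0.20, limma adjusted p = 0.000241). The change was smaller, -0.14, when FPKM were rescaled to TPM (adjusted p = 0.0254, limma), a scaling under which the median of all genes was 0.081 in place of -0.066. It was also -0.14 with the GC trend removed (adjusted p = 0.0317, limma). The other flavin-dependent demethylase, KDM1B, averaged 11.6 ± 1.33 FPKM with JIB-04 and 9.01 ± 1.07 FPKM with vehicle (SD, n = 4 each). KDM1B was thus higher, at a log2 fold change of 0.34 (limma adjusted p = 0.0175), but did not pass without vehicle replicate 3 (adjusted p = 0.0513) or with the GC trend removed (adjusted p = 0.176).

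**Figure D2:**
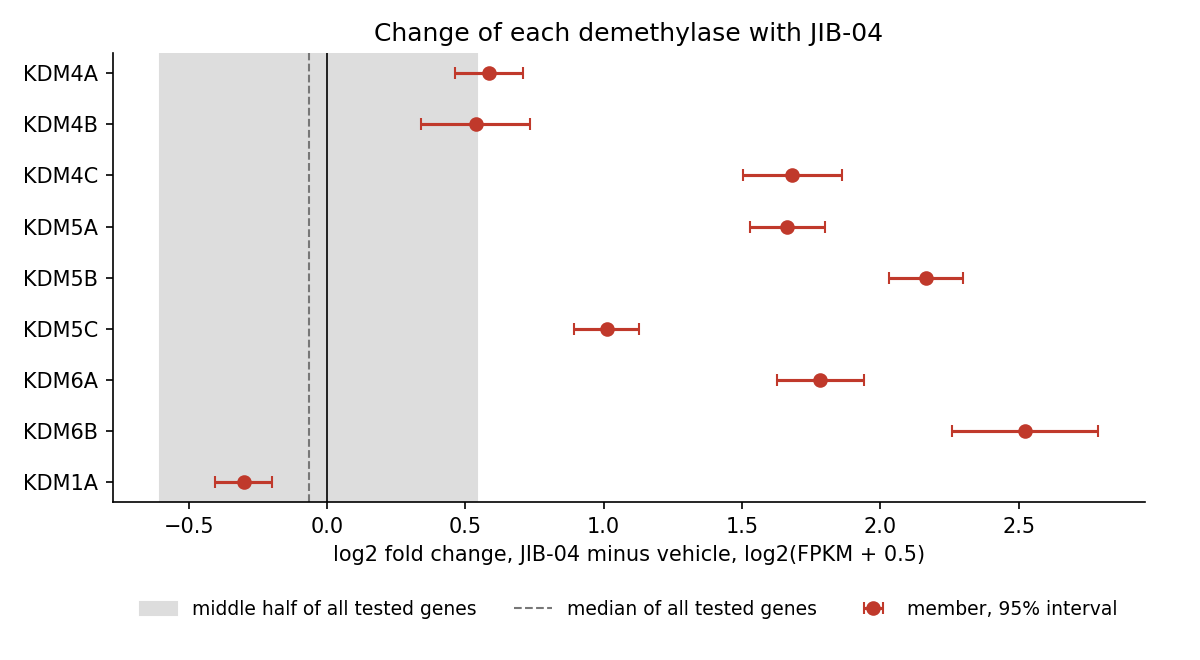
Log2 fold change (JIB-04 minus vehicle, on log2(FPKM + 0.5)) of each member with its 95% interval, over a band for the middle part of all 17460 genes (from the lower to the upper quartile) and a dashed line at their median of -0.066. The points of the 6 members past 2-fold and their intervals lie right of the band, those of KDM4A and KDM4B (0.59 and 0.54) lie at its upper edge, and that of KDM1A (-0.30) lies inside it.

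The order of the members by level differed between the groups. FPKM are per length, so levels can be set beside each other. With JIB-04 the order was KDM5C (298 ± 3.91 FPKM), KDM5B (211 ± 14.5), KDM1A (171 ± 8.50), KDM6A (121 ± 3.17), KDM6B (103 ± 14.6), KDM5A (91.7 ± 4.65), KDM4A (57.8 ± 1.93), KDM4B (27.9 ± 2.96) and KDM4C (16.1 ± 0.377, SD, n = 4 each). The ranges of KDM6B and KDM5A overlapped, and all other neighbours were apart. With the GC trend removed, the log2 ratio of KDM6A to KDM6B was -0.032 ± 0.10 with JIB-04 (SD, n = 4). That removal keeps each gene's mean over all 8 libraries, so it cannot rank genes within a group. With vehicle the order was KDM1A (210.2 ± 6.85 FPKM), KDM5C (148 ± 10.8), KDM5B (46.6 ± 2.20), KDM4A (38.4 ± 2.16), KDM6A (34.98 ± 3.44), KDM5A (28.6 ± 1.72), KDM4B (19.0 ± 1.30), KDM6B (17.4 ± 2.02) and KDM4C (4.70 ± 0.436, SD, n = 4 each). There the ranges of KDM4A and KDM6A overlapped, as did those of KDM4B and KDM6B. KDM1A, the most abundant of the 9 with vehicle, stood below KDM5C and KDM5B with JIB-04. Among all genes tested, KDM6B stood at percentile 86.6 with JIB-04 and 51.8 with vehicle, and KDM6A at 88.7 and 66.9, while KDM1A stood at 92.3 and 93.8.

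Ratios taken within each library do not depend on how that library was scaled, although they can depend on the GC content of the transcripts. The log2 ratio of each Jumonji member to KDM1A was higher with JIB-04 in all 8 cases, with no overlap between groups (exact permutation p = 0.0286 each, adjusted over the 8 ratios 0.0286). KDM5B and KDM5C were the members whose ratio to KDM1A was above 0 with JIB-04, at 0.30 and 0.81 on the log2 scale, against -2.16 and -0.51 with vehicle. The largest shift of the ratio was in KDM6B, at -0.74 with JIB-04 and -3.56 with vehicle, a difference of 2.82. The smallest shifts were in KDM4B, at -2.60 with JIB-04 and -3.43 with vehicle, a difference of 0.84, and in KDM4A, at -1.55 and -2.44, a difference of 0.89. The order of KDM4A and KDM4B was reversed with the GC trend removed (0.88 for KDM4A and 1.13 for KDM4B).

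Most members of a subfamily changed by unequal amounts, as 7 pairs showed. The log2 ratio of KDM4A to KDM4B was 1.04 ± 0.13 with JIB-04 and 1.00 ± 0.17 with vehicle (SD, n = 4 each), and these overlapped (exact permutation p = 0.714). This does not show that KDM4A and KDM4B changed alike, since the difference of 0.05 became -0.24 with the GC trend removed (exact permutation p = 0.0571). In the other 6 pairs the groups did not overlap (exact permutation p = 0.0286, adjusted over the 7 pairs 0.0333). KDM4C gained on both its relatives, since the log2 ratio of KDM4A to KDM4C was 1.81 with JIB-04 and 2.90 with vehicle, and that of KDM4B to KDM4C was 0.77 and 1.91. KDM5B gained on KDM5C by 1.16 and KDM5A gained on KDM5C by 0.65, while KDM5A lost 0.50 to KDM5B. The log2 ratio of KDM6A to KDM6B was 0.25 with JIB-04 and 0.99 with vehicle, a difference of -0.74 that did not pass without JIB-04 replicate 1, 2 or 4 (-0.68, -0.70 and -0.75, exact permutation p adjusted over the 7 pairs 0.0667). The groups still did not overlap there. In each case, however, grouping vehicle replicate 1 with the JIB-04 libraries gave a difference at least as large. The sizes also moved with GC content. With the GC trend removed, the gain of KDM5A on KDM5C was 0.28, the difference of KDM4B to KDM4C was -0.75 in place of -1.14, and the difference of KDM6A to KDM6B was -1.30, with no overlap between groups in any of these 3.

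As a share of the summed FPKM of a subfamily, KDM5C took 49.7% ± 1.17 with JIB-04 and 66.3% ± 2.21 with vehicle (SD, n = 4 each). KDM5B took 35.1% ± 1.22 with JIB-04 and 20.9% ± 1.46 with vehicle. KDM5 transcripts thus shifted away from the X-linked member, although KDM5C still held the largest share in every library. KDM4C took 15.9% ± 1.02 of the KDM4 sum with JIB-04 and 7.56% ± 0.548 with vehicle. KDM6B took 45.7% ± 3.51 of the KDM6 sum with JIB-04 and 33.2% ± 3.74 with vehicle. KDM6A remained the larger of the KDM6 pair in each library by FPKM. With the GC trend removed, the log2 ratio of KDM6A to KDM6B was -0.032 ± 0.10 with JIB-04 and 1.27 ± 0.15 with vehicle (SD, n = 4 each). Since that removal keeps each gene's mean over all 8 libraries, only the difference between the groups can be read from these ratios. The sums themselves were 102 ± 4.09 FPKM with JIB-04 and 62.1 ± 1.59 FPKM with vehicle for KDM4, 601 ± 21.2 and 223 ± 9.92 FPKM for KDM5, and 224 ± 15.6 and 52.4 ± 3.68 FPKM for KDM6.

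**Figure D3:**
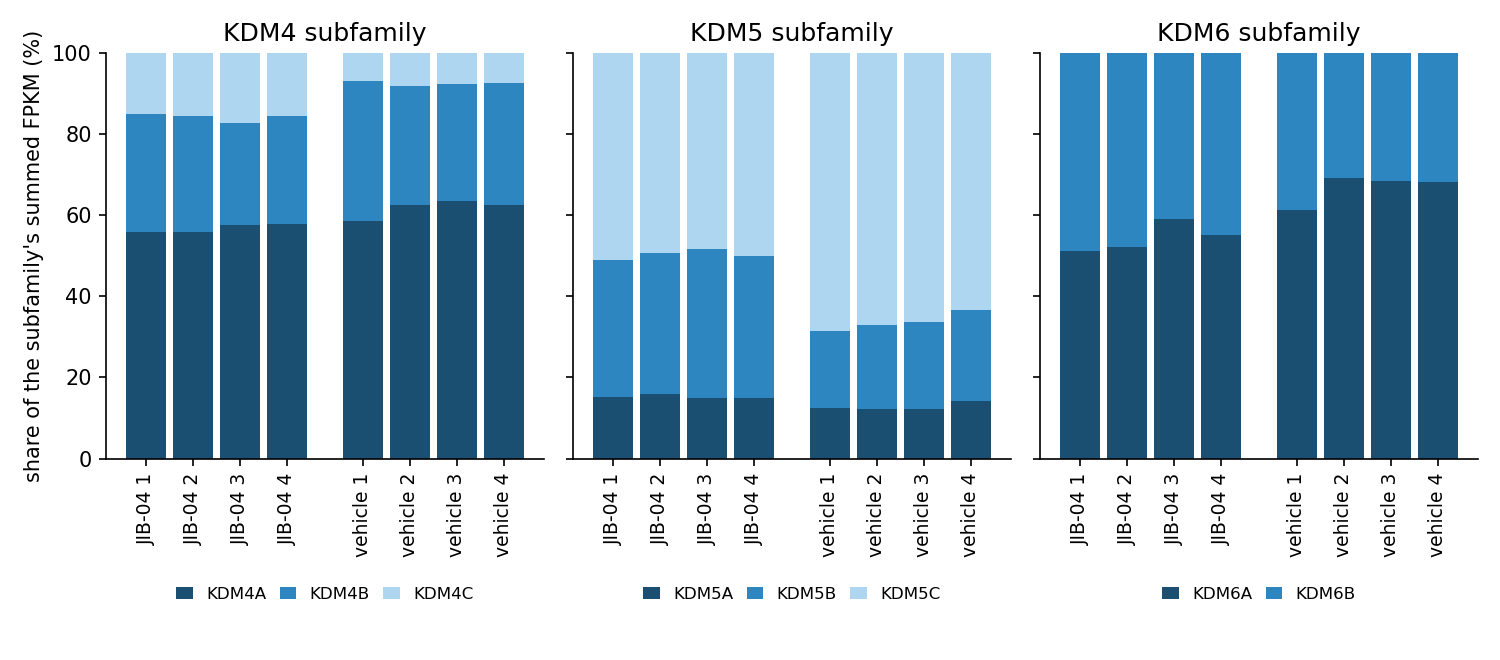
Share (%) of the summed FPKM of the KDM4, KDM5 and KDM6 subfamilies taken by each member, with a bar for each library, JIB-04 to the left of vehicle. The KDM4C and KDM5B parts are wider in all JIB-04 libraries (means 15.9% and 35.1%) than in all vehicle libraries (7.56% and 20.9%).

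The same motifs were searched in the 250 bases before the RefSeq start of all 9 members and of 35116 promoters. KDM6B has 2 RefSeq entries, and only the first was searched for the member counts. That stretch, chr17:7833967-7834216, lies upstream of the KDM6B gene start given above. CACGTG was found in 3 of 9 members (KDM4B, KDM4C and KDM6A, printed above) and in 6.345% of all promoters, and its search was added after the other motifs had been read. ACGTG was found on either strand in 4 of 9 members, these 3 and KDM1A, and in 18.5% of all promoters. GCGTG, the core of the xenobiotic response element, was found on either strand in 8 of 9 members and in 32.2% of all promoters. TGACTCA, an AP-1 site, was found on either strand in KDM4C and KDM6A and in 4.20% of all promoters. In both genes the TGACTCA match shares 2 bases with an ACGTG printed in capitals. TGACNNNGC, the core of the antioxidant response element, was found on either strand in KDM4C and in 10.9% of all promoters. The members' promoters held 15 (KDM5C) to 36 (KDM4B) CG dinucleotides, above the median of 11 over all promoters. A match is only a run of letters, and binding was not measured.

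Other Jumonji demethylases and related oxygenases, listed together, did not move in a single direction. Of 15 listed, 14 were tested, of which 7 were higher and 7 were lower (median log2 fold change 0.02), and KDM4E was below the filter. KDM3A, which acts on H3K9 and is inducible by hypoxia, averaged 212 ± 7.68 FPKM with JIB-04 and 23.3 ± 1.00 FPKM with vehicle (SD, n = 4 each), a log2 fold change of 3.16 (limma adjusted p = 3.02e-10) above those of all 9 members. JMJD1C, a relative of KDM3A, and KDM7A, which acts on H3K9 and H3K27, were higher by 2.82 and 1.91 on the log2 scale. RIOX2, a nucleolar hydroxylase listed under its older symbol MINA, fell by 1.32, RIOX1, a related oxygenase, by 0.87, and PHF2, an H3K9 demethylase, by 0.81. KDM4D, the closest relative of the KDM4 members and named here after its value was seen, averaged 2.81 ± 0.271 FPKM with JIB-04 and 2.24 ± 0.0342 FPKM with vehicle (SD, n = 4 each). Its log2 fold change of 0.27 passed the limma test at an adjusted p of 0.0430 and did not pass in 10 of 20 alternatives, leaving out any library but JIB-04 replicate 3 among them (adjusted p 0.066 to 0.112).

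The methyltransferases that write the marks these enzymes remove were mixed. Of 6 H3K4 methyltransferases, 1 was higher, 3 were lower and the other two did not pass. KMT2C was higher by 0.77 on the log2 scale and SETD1B was lower, at -1.12, while SETD1A (-0.30) and KMT2A (-0.21) lost the call when FPKM were rescaled to TPM, and SETD1A passed as higher with the GC trend removed (0.19, limma adjusted p = 0.0144). KMT2B (0.20) and KMT2D (-0.11) did not pass. KMT2B passed as higher in 6 of 21 alternatives, among them the removal of the GC trend (0.72, limma adjusted p = 9.61e-05), TPM (0.36) and leaving out vehicle replicate 1. KMT2D passed as lower in 5 of 21, leaving out vehicle replicate 4 among them, and as higher with the GC trend removed (0.27, limma adjusted p = 0.000314). Among 6 H3K9 methyltransferases, 2 passed as higher and 3 as lower. EHMT2, also known as G9a, averaged 24.2 ± 2.17 FPKM with JIB-04 and 97.2 ± 5.63 FPKM with vehicle (SD, n = 4 each), a log2 fold change of -1.99 (limma adjusted p = 2.46e-08). Its partner EHMT1 (-0.85) and the heterochromatin enzyme SUV39H1 (-0.82) were also lower, whereas SETDB2 (1.78) was higher. SETDB1 passed at 0.13 (limma adjusted p = 0.0433) but not without JIB-04 replicate 1, 3 or 4 or vehicle replicate 2, 3 or 4 (adjusted p 0.0779 to 0.111). SUV39H2 did not pass (0.04).

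Of 5 H3K36 methyltransferases, 2 were higher and 3 were lower. ASH1L (0.78) and SETD2 (0.37), which deposits the trimethyl mark, were higher. NSD1 (-1.77), NSD2 (-1.07) and NSD3 (-0.37), which deposit the lower states of methylation, were lower. Of the 4 PRC2 genes, which encode the complex that writes the KDM6 substrate, 2 passed as higher and 1 as lower. The catalytic subunit EZH2 did not pass, at 156 ± 4.58 FPKM with JIB-04 and 145 ± 6.11 FPKM with vehicle (SD, n = 4 each; log2 fold change 0.11, limma adjusted p = 0.0517). EZH2 passed as higher in 8 of 21 alternatives, among them TPM (0.27, limma adjusted p = 0.000185) and leaving out JIB-04 replicate 3 or vehicle replicate 4, and was -0.011 with the GC trend removed. SUZ12, a core subunit, was higher by 0.83, and EED, which reads the mark, by 0.23, although EED passed as lower with the GC trend removed (-0.32, limma adjusted p = 0.00362). EZH1 was lower, at -0.24, but did not pass without JIB-04 replicate 3 or 4 or vehicle replicate 1, 2 or 4 (limma adjusted p 0.0507 to 0.0624) or under TPM (-0.085).

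Proteins that work with the members in complexes were looked at in 3 lists. Of 7 partners of KDM6A in the KMT2C and KMT2D complexes, 1 was higher and 6 were lower (median log2 fold change -0.41). RBBP5, a core subunit, was higher by 1.47, and PAGR1 averaged 18.3 ± 1.96 FPKM with JIB-04 and 83.0 ± 3.997 FPKM with vehicle (SD, n = 4 each; log2 fold change -2.16, limma adjusted p = 2.41e-08). PAXIP1, which binds PAGR1, and WDR5, a scaffold, were lower, at -0.72 and -0.64. Of 7 partners of KDM1A in the CoREST complex, 5 were lower like KDM1A, 1 was higher and 1 did not pass (median -0.48). HMG20B (-1.26), HDAC1 (-0.87) and RCOR1 (-0.23), the scaffold of the complex, were lower. RCOR1 did not pass under TPM (-0.065). HDAC2 (0.15) was higher but passed as lower with the GC trend removed (-0.21, limma adjusted p = 0.000874), and was -0.049 with the transcript length trend removed. PHF21A did not pass (0.13), but passed as higher under TPM (0.29, limma adjusted p = 0.00139), TPM without the mitochondrial genome, median-ratio scaling and removal of the GC trend (0.27), and was -0.055 with the length trend removed. Of 7 partners of KDM5A in the SIN3B complex, which share HDAC1 and HDAC2 with that list, 3 passed as higher and 3 as lower. SIN3B itself (0.74) and EMSY (0.36) were higher, GATAD1 (-0.70) and MORF4L1 (-0.39) were lower, and PHF12 did not pass (-0.0042), except as higher with the GC trend removed (0.18, limma adjusted p = 0.0119).

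**Figure D4:**
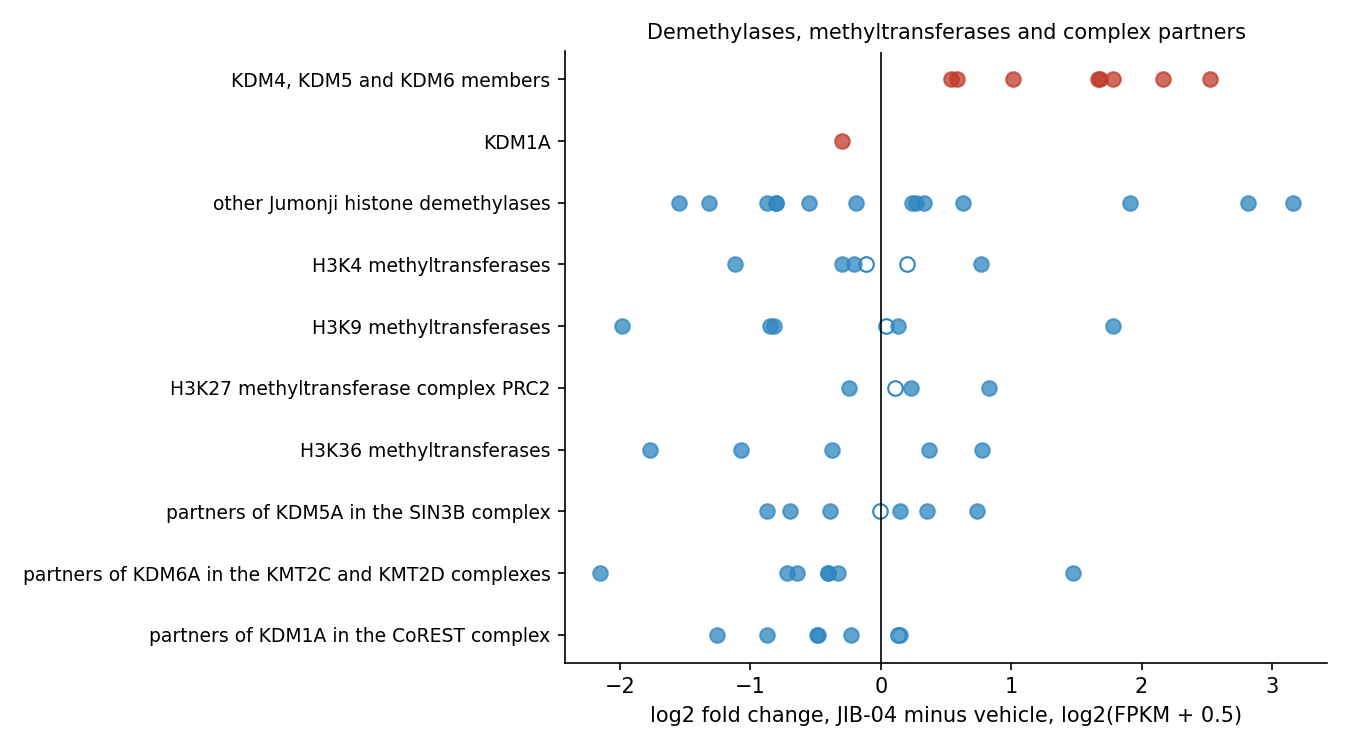
Log2 fold change (JIB-04 minus vehicle, on log2(FPKM + 0.5)) of tested genes, filled where the limma adjusted p was under 0.05 and open where it was not. Rows are the Jumonji members, KDM1A, the other Jumonji list, and the lists of methyltransferases and complex partners. KDM1B and the cell type markers are not shown. The 8 Jumonji members all lie right of 0 (0.54 to 2.52), while every list shown has genes on both sides.

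Of the Ewing Sarcoma markers, 1 of 7 passed as higher and 5 as lower. Among the lower, STEAP1 (-0.21) and EWSR1 (-0.23) did not pass under TPM (-0.049 and -0.070, limma adjusted p = 0.431 and 0.117). CD99, a surface protein gene, fell by 0.95 on the log2 scale, PRKCB, a kinase gene, by 0.64 and NKX2-2, a transcription factor gene, by 0.77. FLI1, whose reads include those of the EWSR1-FLI1 fusion of this line, was higher by 0.24, and NR0B1, a target of the fusion, did not pass (0.15). NR0B1 passed as higher in 6 of 21 alternatives, among them the removal of the GC trend (0.499, limma adjusted p = 2.55e-05), TPM (0.32) and leaving out JIB-04 replicate 3. The markers and the members thus differed between the same groups of libraries, and whether their changes are linked was not tested.

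The genes whose pattern over the 8 libraries was most like that of KDM6B were CYR61, a secreted matrix protein gene, HLA-E, a non-classical MHC gene, and BNIP3P1, a pseudogene. Likeness was the root mean square difference of log2(FPKM + 0.5) after each gene was centred on its vehicle mean, which was 0.101, 0.111 and 0.112. Their log2 fold changes were 2.51, 2.43 and 2.47. Those most like KDM1A were GDE1, a phosphodiesterase gene, CCT4, a chaperonin subunit gene, and CALCB, a neuropeptide gene, with differences of 0.030, 0.030 and 0.038 and log2 fold changes of -0.27, -0.32 and -0.30.

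**Figure D5:**
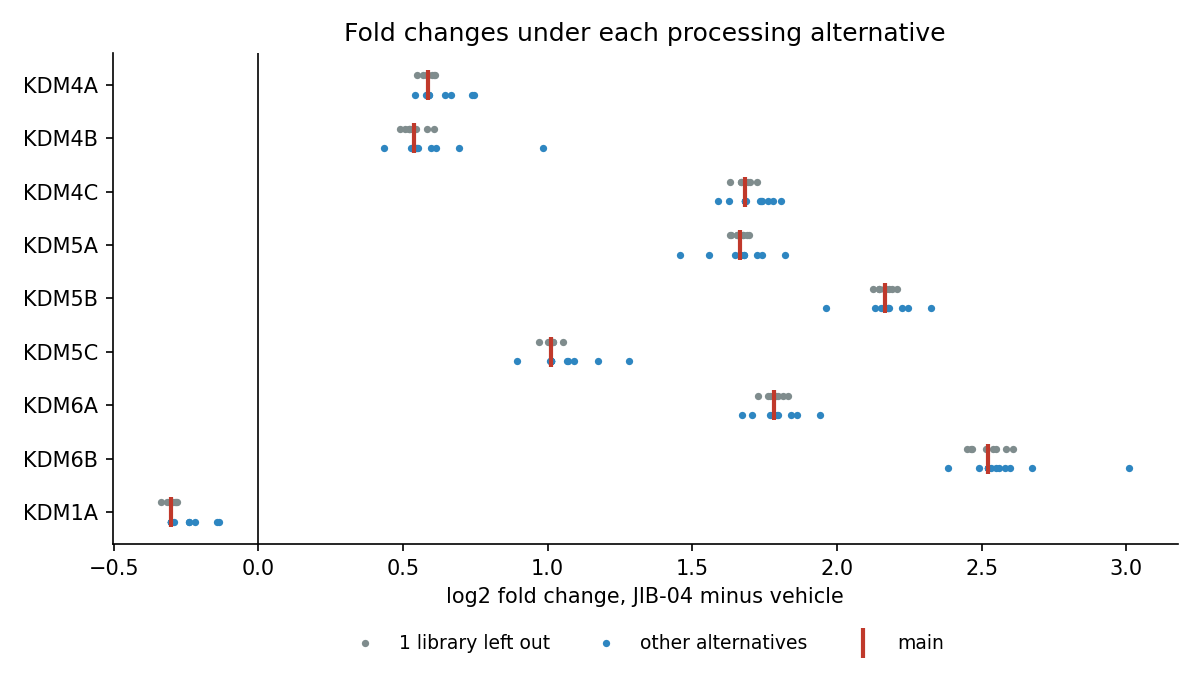
Log2 fold change (JIB-04 minus vehicle) of each member as reported (bars) and under each alternative (points, with those that leave out 1 library above). All points of the 8 Jumonji members lie right of 0 and all points of KDM1A lie left of it, and the widest ranges are those of KDM4B (0.43 to 0.98) and KDM6B (2.39 to 3.01).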

How the data were processed

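RNA-seq of A673 cells (4 JIB-04 and 4 vehicle samples) was used as gene FPKM, which the authors calculated with Cufflinks after GSNAP alignment to GRCh38 and SAMtools, per the submitters' processing notes. The read length differs between the sources, and the annotation release is not given in those used here. Of 66095 entries for 65975 Ensembl identifiers, entries of 117 identifiers were summed and 13 genes with a placeholder value were left out, with 0 members among them. Genes averaging 1 FPKM or more were fitted on log2(FPKM + 0.5) with limma 3.58.1 in R 4.3.3 (trend, Benjamini-Hochberg over 17460 genes), which understates changes of low genes. Exact two-sided permutation tests over the 8 libraries were run for single values and ratios. The scripts were tested on simulated data. Coordinates, GC content and lengths came from GENCODE (GRCh38), and promoters from RefSeq (GRCh38.p14), matched by symbol for all 9 members. Tables used pandas 2.3.3 and numpy 2.4.6 under Python 3.11.15, and plots matplotlib 3.10.9. FPKM do not hold read counts, so the precision is that of the spread among libraries. The members, lists and tests were chosen with earlier results of these data known. The text names all members, from each list up to 3 higher and 3 lower genes by smallest adjusted p, up to 5 that did not pass, and the 3 genes most like the members with the highest and lowest fold change. A few more are named because an alternative changed their call or direction. The alternatives were other pseudocounts, filters and scalings, an untrended fit, an analysis of variance of FPKM for each gene, removal of GC or length trends, a replicate block and leaving out each library.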

Additional observations from a re-analysis of the deposited data

Results flagged for a closer look

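The 9 members were checked in both groups (18 groups of 4 libraries) for a library set apart from the other 3, by the gap to its nearest neighbour relative to the range of the group, and chance marks about 1 in 20 such groups. KDM1A in JIB-04 replicate 4 was set apart, at 183 FPKM, against 165 to 168 FPKM in the other JIB-04 libraries. KDM4B in vehicle replicate 1 was also set apart, at 20.9 FPKM, against 18.3 to 18.5 FPKM in the other vehicle libraries. Without these libraries the log2 fold changes were -0.34 for KDM1A and 0.58 for KDM4B.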

How the results depend on the processing

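All 9 members kept their direction and their call under each alternative run (22 for each), and so did the ratios to KDM1A. Summing the entries of a symbol is among the 22 and could not differ, since each symbol had a single entry. It is also counted among the 420 comparisons that follow. With the ratios within subfamilies, whose alternatives were chosen after seeing the data, as was trend removal for ratios to KDM1A, 415 of 420 comparisons were unchanged. The others were KDM4A to KDM4B, which turned to -0.24 with the GC trend removed and ranged from -0.034 to 0.090 when each library was left out, and KDM6A to KDM6B (-0.86 to -0.68), which lost its call without JIB-04 replicate 1, 2 or 4. Leaving out each library gave log2 fold changes of -0.34 to -0.28 for KDM1A, 0.49 to 0.61 for KDM4B, 0.97 to 1.05 for KDM5C and 2.45 to 2.61 for KDM6B. KDM5C was below 2-fold without vehicle replicate 2 (0.9997) or 4 (0.97) and with the length trend removed (0.89). Of 462 comparisons of list counts, 418 stayed within 1.5 times and 44 did not. Counts of 0 in both fits were taken as unchanged, as for the other cell type markers, with 0 genes tested in the main fit. Rescaling to TPM moved the median of all genes to 0.081 from -0.066, with 7061 higher and 5424 lower in place of 5964 and 6640. Deviations from the group means correlated at -0.058 to 0.082 between same-numbered libraries of the 2 groups, and at -0.14 to 0.10 between the others. These ranges are alike and cannot show whether the replicate numbers pair the samples. With a replicate block 5900 genes were higher and 6618 were lower, and the members stayed at 8 higher and 1 lower.

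Some list genes changed direction. Under TPM, KMT2D was 0.052 and PHF12 was 0.16 (0.078 without the mitochondrial genome, and 0.056 with median-ratio scaling). With the GC trend removed the log2 fold changes were 0.27 for KMT2D, 0.19 for SETD1A, 0.18 for PHF12, -0.17 for SUV39H2, -0.011 for EZH2, -0.32 for EED and -0.21 for HDAC2, of which KMT2D, SETD1A, PHF12, EED and HDAC2 passed the limma test in the new direction. With the length trend removed they were -0.049 for HDAC2, -0.055 for PHF21A and 0.0097 for STEAP1. Leaving out each library gave -0.056 to 0.089 for SUV39H2 and -0.055 to 0.035 for PHF12. The cause was not tested. Read depth is unknown, and 4 libraries a group limit the precision.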

Other observations

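Libraries of the same group differed in how FPKM depended on GC content, a measure chosen with the data in view. The Spearman correlation across genes of a library's deviation from its group mean with transcript GC content was 0.21, 0.37, -0.36 and -0.20 in JIB-04 replicates 1 to 4 and 0.40, 0.0061, -0.092 and -0.37 in vehicle replicates 1 to 4, over 17342 genes that share their libraries and are not independent. Across the same genes, the log2 fold change itself correlated with GC content (Spearman -0.296) and with transcript length (0.129). Removing either trend thus also takes out part of the difference between the groups, and the source of that part was not tested. KDM4B and KDM6B, the members with the most GC-rich transcripts (61.2% and 62.4%), were lowest among the treated libraries in JIB-04 replicates 3 and 4. With the GC trend removed, the SD of their log2 values among the JIB-04 libraries was 0.057 for KDM4B and 0.073 for KDM6B, in place of 0.155 and 0.209. KDM4A also fell, to 0.038 in place of 0.048. In the other 6 members the SD among the JIB-04 libraries was higher after the removal, most in KDM5C (0.072 in place of 0.019).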
